A study of Mus musculus with 8 samples.

Results

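The genes Efna5, Sema3f, Robo3, Unc5b and Dclk1 were followed through early endoderm differentiation of mouse embryonic stem (ES) cells. They were chosen by name as genes linked to axon guidance, and each was read through the probe that the study's list of differentially expressed genes pairs with its symbol. This gave 1 probe for each of the 5 genes among 42006 distinct probes on the array, and all 5 were among the 29484 probes tested. The 8 samples were 4 flow-sorted fractions from each of 2 clones, 5.1 and 16.1, of HV ES cells. HV cells are 129/Ola ES cells in which the Venus fluorescent protein was knocked into the Hex locus behind an internal ribosome entry site, together with a Hex cDNA carrying a tag for the biotin ligase BirA. The parental cells express BirA from the Rosa26 locus, and the drug selection cassette had been removed with Cre. All fractions carried these same modifications and came from cultures kept self-renewing with LIF, so by design the fractions differed only in their sort gate. V stands for Venus and S for the surface antigen SSEA-1, which marks undifferentiated ES cells. The fractions were V-S+ (SSEA-1 and no Venus), V+S+ (both), V-S- (neither) and V+S- (Venus and no SSEA-1), with 2 samples each. The groups follow the sample titles, with which the source names match, whereas the sample descriptions name V-S+ in 2 places and leave out V+S-. Each HV line is a single clone and was hybridised to a slide of its own, which means that effects of the clone and of the slide cannot be told apart.

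Axon guidance cues are secreted or membrane-bound proteins that attract or repel migrating cells and growing axons through receptors linked to the actin cytoskeleton. Ephrins signal through Eph receptors on neighbouring cells, class 3 semaphorins through neuropilins and plexins, Slits through Robo receptors and netrins through Dcc and Unc5 receptors. These pathways also act outside the nervous system, for example in vessel growth and in the sorting of cells during embryogenesis. Primitive endoderm (PrEn) is the lineage that separates from the pluripotent epiblast in the blastocyst and gives rise to the yolk sac endoderm. Hex is a homeobox gene switched on as PrEn forms, and the fractions were compared to follow cells that enter this lineage within ES cell culture.

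The array probes are 60 bases long and the files mark the probes of these 5 genes as unmapped, so no genome position is given for them. The last 30 bases of each probe, from base 31 to base 60, are printed to show which transcript sequence each measurement came from. Capitals mark AATAAA, the signal for cleavage and polyadenylation, searched as these letters on the printed strand.
Efna5: agtgaaaatcataatttgggtcatatttcg
Sema3f: gttccatcttgctAATAAAtgctggctctg
Robo3: tagctctttactttccatctcgttctgact
Unc5b: catgacctctgtgcccaggtttgtgccact
Dclk1: tggtattgaaaggattctttcagtctgaga
The Sema3f probe was the only one of the 5 to hold AATAAA, and 6.93% of all 42006 probes hold it. The GC content of the whole probes was between 36.7% for Efna5 and 55.0% for Unc5b, against a median of 43.3% over all probes.

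Each value below is a log2 ratio of the sample, labelled with Cy3, to a universal mouse reference RNA pooled from cell lines and labelled with Cy5. A value above 0 means more signal than in the reference for that probe. Ratios of different probes are not set against each other, because they depend on how much of each transcript the reference holds. The samples are bulk sorted cells, in which fewer cells of a type and less RNA per cell cannot be told apart. All 5 probes were well above background in the Cy3 channel in 16 of 16 scanner files. The dimmest, Dclk1, reached between 1.84 and 6.62 times the local background, and Unc5b between 42.8 and 161 times. The repeat scans of an array differed by at most 0.13 on the log2 scale for these probes.

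The labelled cell states were described with markers named through the study's list. That list holds probes chosen because they differed among these arrays, so the markers are not an independent check. The undifferentiated ES cell markers that could be named, 4 of 11 listed, were Pou5f1, Nanog, Dppa3 and Tdgf1. They had a mean log2 ratio of 1.80 and 1.73 in the V-S+ samples of clones 5.1 and 16.1, whereas V+S- had 0.78 and 0.59. The 8 PrEn markers that could be named of 17 listed averaged -1.13 and -0.96 in V-S+ on the same scale, and 0.07 and 0.13 in V+S-. V-S- lay near V-S+ on both lists, with 1.59 and 1.67 for the ES cell markers and -1.16 and -1.09 for the PrEn markers. V+S+ had 1.56 and 1.07 for the ES cell markers and -0.78 and -0.36 for the PrEn markers. The ES cell markers did not move together between V-S+ and V+S+. The log2 difference of V+S+ from V-S+ was -1.37 ± 0.24 for Dppa3 and -0.72 ± 0.20 for Nanog (SE). It was 0.22 ± 0.24 for Pou5f1 and 0.06 ± 0.09 for Tdgf1. The median Cy3 signal over background was between 2.36 and 2.88 per sample, and the arrays correlated with each other at r between 0.82 and 0.99 over all probes.

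All 5 genes had their highest mean in V+S-, the fraction with Venus and without SSEA-1. Each gene had its V+S+ mean between those of V-S+ and V+S-, an order that, with V-S- also below V+S-, 30% of all probes tested showed as well. In Efna5, Sema3f, Unc5b and Dclk1 the samples of V-S+ and V-S-, the fractions without Venus, overlapped, whereas in Robo3 both V-S- samples lay above both V-S+ samples.

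Efna5 encodes ephrin-A5, a ligand anchored in the membrane by a lipid tail that signals through EphA receptors on adjoining cells. In clone 5.1 the Efna5 log2 ratio was -0.41 for V-S+, 0.35 for V+S+, -0.68 for V-S- and 0.98 for V+S-. In clone 16.1 it was -0.13 for V-S+, 0.88 for V+S+, -0.31 for V-S- and 1.37 for V+S-. Both V+S- samples lay above every other sample, both V+S+ samples lay above all samples without Venus, and V-S+ and V-S- overlapped. The means were -0.27 ± 0.20 for V-S+, 0.61 ± 0.38 for V+S+, -0.49 ± 0.26 for V-S- and 1.18 ± 0.28 for V+S- (SD, n = 2 each).

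Sema3f encodes a secreted class 3 semaphorin, a repellent cue that binds neuropilins. In clone 5.1 the Sema3f log2 ratio was -2.57 for V-S+, -2.44 for V+S+, -2.73 for V-S- and -1.52 for V+S-. In clone 16.1 it was -2.31 for V-S+, -1.77 for V+S+, -2.56 for V-S- and -1.16 for V+S-. Both V+S- samples lay above every other sample, and V+S+ overlapped V-S+, as the V+S+ sample of clone 5.1 lay below the V-S+ sample of clone 16.1. The means were -2.44 ± 0.19 for V-S+, -2.10 ± 0.48 for V+S+, -2.64 ± 0.12 for V-S- and -1.34 ± 0.25 for V+S-.

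Robo3 encodes a divergent member of the Robo receptor family, known for its part in letting commissural axons cross the midline. In clone 5.1 the Robo3 log2 ratio was 0.11 for V-S+, 0.64 for V+S+, 0.75 for V-S- and 1.48 for V+S-. In clone 16.1 it was 0.11 for V-S+, 0.22 for V+S+, 0.55 for V-S- and 1.16 for V+S-. The order of fractions was the same in both clones, with V-S+ lowest and V-S- above V+S+, although the V+S+ sample of clone 5.1 lay above the V-S- sample of clone 16.1. The means were 0.11 ± 0.00 for V-S+, 0.43 ± 0.30 for V+S+, 0.65 ± 0.14 for V-S- and 1.32 ± 0.22 for V+S-.

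Unc5b encodes a receptor for netrins that mediates repulsion and is also known from the endothelium of growing vessels. In clone 5.1 the Unc5b log2 ratio was -0.86 for V-S+, -0.36 for V+S+, -0.75 for V-S- and 0.05 for V+S-. In clone 16.1 it was -0.55 for V-S+, 0.15 for V+S+, -0.59 for V-S- and 0.59 for V+S-. Both fractions with Venus lay above both without it, and V+S+ and V+S- overlapped. The means were -0.71 ± 0.22 for V-S+, -0.10 ± 0.36 for V+S+, -0.67 ± 0.11 for V-S- and 0.32 ± 0.38 for V+S-.

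Dclk1 encodes doublecortin-like kinase 1, a protein kinase that binds microtubules, and it is neither a guidance cue nor a receptor. In clone 5.1 the Dclk1 log2 ratio was -2.66 for V-S+, -1.94 for V+S+, -2.80 for V-S- and -1.77 for V+S-. In clone 16.1 it was -2.48 for V-S+, -1.34 for V+S+, -2.42 for V-S- and -1.25 for V+S-. The 4 samples with Venus lay above the 4 without it whatever their SSEA-1 state. The means were -2.57 ± 0.13 for V-S+, -1.64 ± 0.42 for V+S+, -2.61 ± 0.27 for V-S- and -1.51 ± 0.36 for V+S-.

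**Figure D1:**
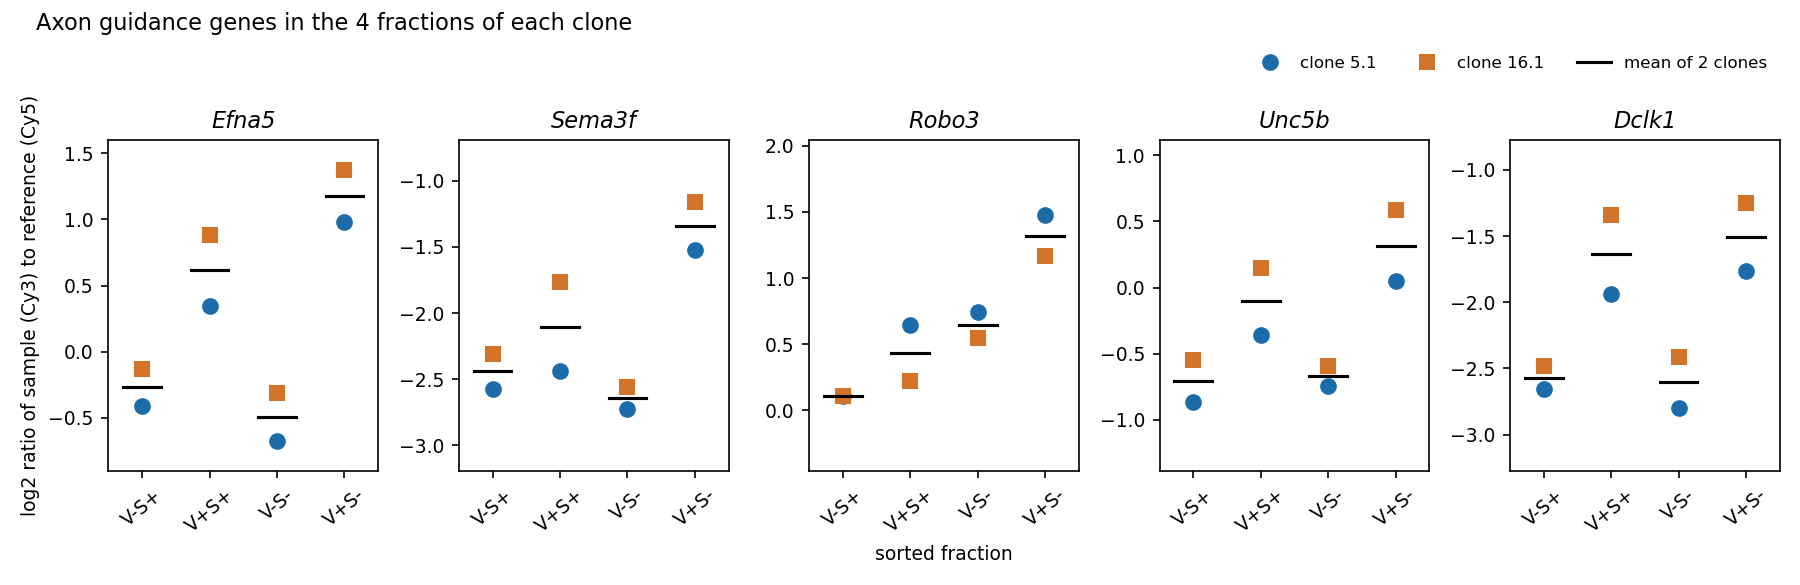
Log2 ratio of sample to reference for each gene in the 4 sorted fractions, with a point for each clone and a bar at the mean of the 2 clones; the panels have different y ranges of equal height. V+S- has the highest mean in every panel, and Robo3 is the gene with its V-S- samples raised above V-S+.

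The reference channel varied less than the sample channel. The raw Cy3 signal varied over the 8 samples by between 3.41-fold for Sema3f and 4.96-fold for Efna5, whereas the raw Cy5 signal of the reference varied by between 1.21-fold for Dclk1 and 1.39-fold for Sema3f. With the Cy3 channel alone, V+S- exceeded V-S+ by 1.38 for Efna5, 1.09 for Sema3f, 1.08 for Robo3, 1.09 for Unc5b and 1.04 for Dclk1 on the log2 scale. All but Unc5b were called in that setting (limma adjusted p = 0.0508 for Unc5b).

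The comparison of V+S- with V-S+ asks how cells that had gained Venus and lost SSEA-1 differed from undifferentiated ES cells. All 5 genes rose. Efna5 was 2.72-fold higher, a log2 difference of 1.45 ± 0.24 (SE, limma adjusted p = 0.0188). Robo3 was 2.32-fold higher, with a log2 difference of 1.21 ± 0.17 and a limma adjusted p of 0.0155. The semaphorin Sema3f, the netrin receptor Unc5b and the kinase Dclk1 rose as well, with log2 differences of 1.10 ± 0.24, 1.02 ± 0.24 and 1.06 ± 0.26 (limma adjusted p = 0.0323, 0.0370 and 0.0412). A gene was called when its adjusted p was below 0.05 over all 29484 probes and its change exceeded 1.5-fold. By this rule 5 of 5 genes were called higher, against a background of 5.73% of all probes called higher in this comparison. In both clones and for all 5 genes the V+S- sample exceeded the V-S+ sample, by between 0.89 for Dclk1 in clone 5.1 and 1.502 for Efna5 in clone 16.1. In 43.6% of all probes V+S- was higher in both clones, and in 35.6% both V+S- samples lay above both V-S+ samples, as they did for the 5 genes. The probes had entered the study's list because they differed among these same arrays, so that these calls are not independent evidence of a change. With the authors' log10 values or an unmoderated test 0 of 5 genes were called, and the Dclk1 difference was 1.66 both in the authors' values and in the scanner software's signals. No gene was called after leaving out either V-S+ sample or the V+S- sample of clone 16.1, and 2 or 3 were called after leaving out either V-S- sample or the V+S- sample of clone 5.1.

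V+S- was then set against V-S-, the fraction that lacked both Venus and SSEA-1. Efna5 rose 3.18-fold, with a log2 difference of 1.67 ± 0.24 (limma adjusted p = 0.0145). Sema3f rose 2.47-fold, with a log2 difference of 1.30 ± 0.24 (limma adjusted p = 0.0214). Robo3 had the smallest of the 5 rises here, 1.60-fold or 0.67 ± 0.17 on the log2 scale (limma adjusted p = 0.0412), and it was 0.73 within clone 5.1 and 0.62 within clone 16.1. Unc5b and Dclk1 rose by 0.99 ± 0.24 and 1.10 ± 0.26 on the log2 scale (limma adjusted p = 0.0382 and 0.0361). Again 5 of 5 genes were called higher, against 6.3% of all probes. Both V+S- samples of each gene lay above both V-S- samples, as in 35% of all probes. This comparison shares its V+S- samples with the preceding one. The calls fell to 3 with the scanner software's signals, to 1 with the authors' log10 values and to 0 with an unmoderated test, and the Dclk1 difference was 1.80 and 1.76 in the first 2 of these. Leaving out either V-S- sample or the V+S- sample of clone 16.1 left no gene called, and leaving out either V-S+ sample or the V+S- sample of clone 5.1 left 2 or 3.

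Between V+S+ and V-S+, both of which carry SSEA-1, the question is whether Venus alone went with a change. With fraction as the only term in the model, 0 of 5 genes and 0% of all probes were called by limma in either direction, while 3 of the 5 genes and 5514 of the probes had an unadjusted p under 0.05. The log2 differences were 0.93 ± 0.26 for Dclk1, 0.88 ± 0.24 for Efna5, 0.60 ± 0.24 for Unc5b, 0.34 ± 0.24 for Sema3f and 0.32 ± 0.17 for Robo3, with limma adjusted p values from 0.180 for Efna5 to 0.461 for Sema3f. With the clone as a replicate block, which removes what all 4 fractions of a clone share, limma called Efna5 (adjusted p = 0.00258), Dclk1 (adjusted p = 0.00358) and Unc5b (adjusted p = 0.0104), against 3.87% of all probes called higher in that fit. Robo3 and Sema3f were not called in either fit, with blocked adjusted p values of 0.0584 and 0.0821. In fits with no clone term, their differences became 0.11 and 0.68 when the V+S+ sample of clone 5.1 was left out, and 0.54 and -0.00057 when that of clone 16.1 was. The Unc5b difference was 0.86 and 0.35 without the same samples, and that of Dclk1 was 1.53 in the authors' values and 1.48 in the scanner software's signals. All 5 genes were higher in V+S+ in both clones, as were 39.7% of all probes. The 2 V+S+ samples of Efna5, Robo3, Unc5b and Dclk1 lay above both V-S+ samples, as did those of 27.6% of all probes.

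V+S- and V+S+ both carry Venus and differ in SSEA-1. Robo3 differed by 0.89 ± 0.17 and Sema3f by 0.76 ± 0.24 on the log2 scale, and Efna5, Unc5b and Dclk1 by 0.56 ± 0.24, 0.42 ± 0.24 and 0.13 ± 0.26. No gene and 0% of all probes were called by limma without the block, at adjusted p values of 0.125 for Robo3 and 0.233 for Sema3f, while 2 of the 5 genes and 4429 of the probes had an unadjusted p under 0.05. With the block, Robo3 (limma adjusted p = 0.00819) and Sema3f (adjusted p = 0.0153) were called, against 1.75% of all probes called higher. The block gave Efna5 and Unc5b adjusted p values of 0.0101 and 0.0451, but neither reached a 1.5-fold change. Each sample was then left out in turn, in fits with no clone term. These differences ranged from 0.68 to 1.10 for Robo3, 0.42 to 1.10 for Sema3f, 0.29 to 0.83 for Efna5, 0.15 to 0.69 for Unc5b and -0.17 to 0.43 for Dclk1. Within clones 5.1 and 16.1 the Dclk1 difference was 0.17 and 0.09. Of the V+S+ samples, leaving out that of clone 5.1 gave the low ends of Sema3f and Efna5, and leaving out that of clone 16.1 gave their high ends. For Dclk1 the 95% interval of the difference ran from -0.49 to 0.75 and so covered both a fall and a rise.

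V-S- and V-S+ differ in SSEA-1 but both lack Venus, and Robo3 was the gene with the largest difference between them. It was 0.54 ± 0.17 higher in V-S- on the log2 scale, by 0.64 in clone 5.1 and 0.44 in clone 16.1, a larger value than in 99.69% of the probes tested. Its unadjusted p was 0.0165, and its limma adjusted p was 0.99998 without the block and 0.375 with it. It was not called, as no probe was called in this comparison by limma with or without the block. An unadjusted p under 0.05 was reached by 834 of the 29484 probes without the block and by 2473 with it. The other genes differed by between -0.22 for Efna5 and 0.04 for Unc5b, with SEs from 0.235 for Efna5 to 0.257 for Dclk1. With each sample left out in turn Efna5 ranged from -0.41 to -0.04 and Sema3f from -0.33 to -0.07, while Unc5b and Dclk1 turned direction. Both V-S- samples of Robo3 lay above both V-S+ samples, a separation that 17.8% of all probes showed in this direction and none of the other 4 genes did.

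V+S+ against V-S- reuses samples of the preceding comparisons, so its values follow from theirs. Efna5 and Dclk1 were higher in V+S+ by 1.11 ± 0.24 and 0.97 ± 0.26 on the log2 scale, Unc5b and Sema3f by 0.57 ± 0.24 and 0.54 ± 0.24, and Robo3 differed by -0.22 ± 0.17, with a 95% interval from -0.62 to 0.19. Without 1 sample at a time Sema3f ranged from 0.20 to 0.88, Unc5b from 0.31 to 0.82 and Robo3 from -0.43 to -0.0056, and Dclk1 was at 1.64 in the authors' values and 1.62 in the scanner software's signals. None was called by limma without the block, where 0% of all probes were called, and 2 of the 5 genes and 6605 probes had an unadjusted p under 0.05. Efna5 (limma adjusted p = 0.00126) and Dclk1 (adjusted p = 0.00211) were called with it, against 4.76% of all probes called higher.

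**Figure D2:**
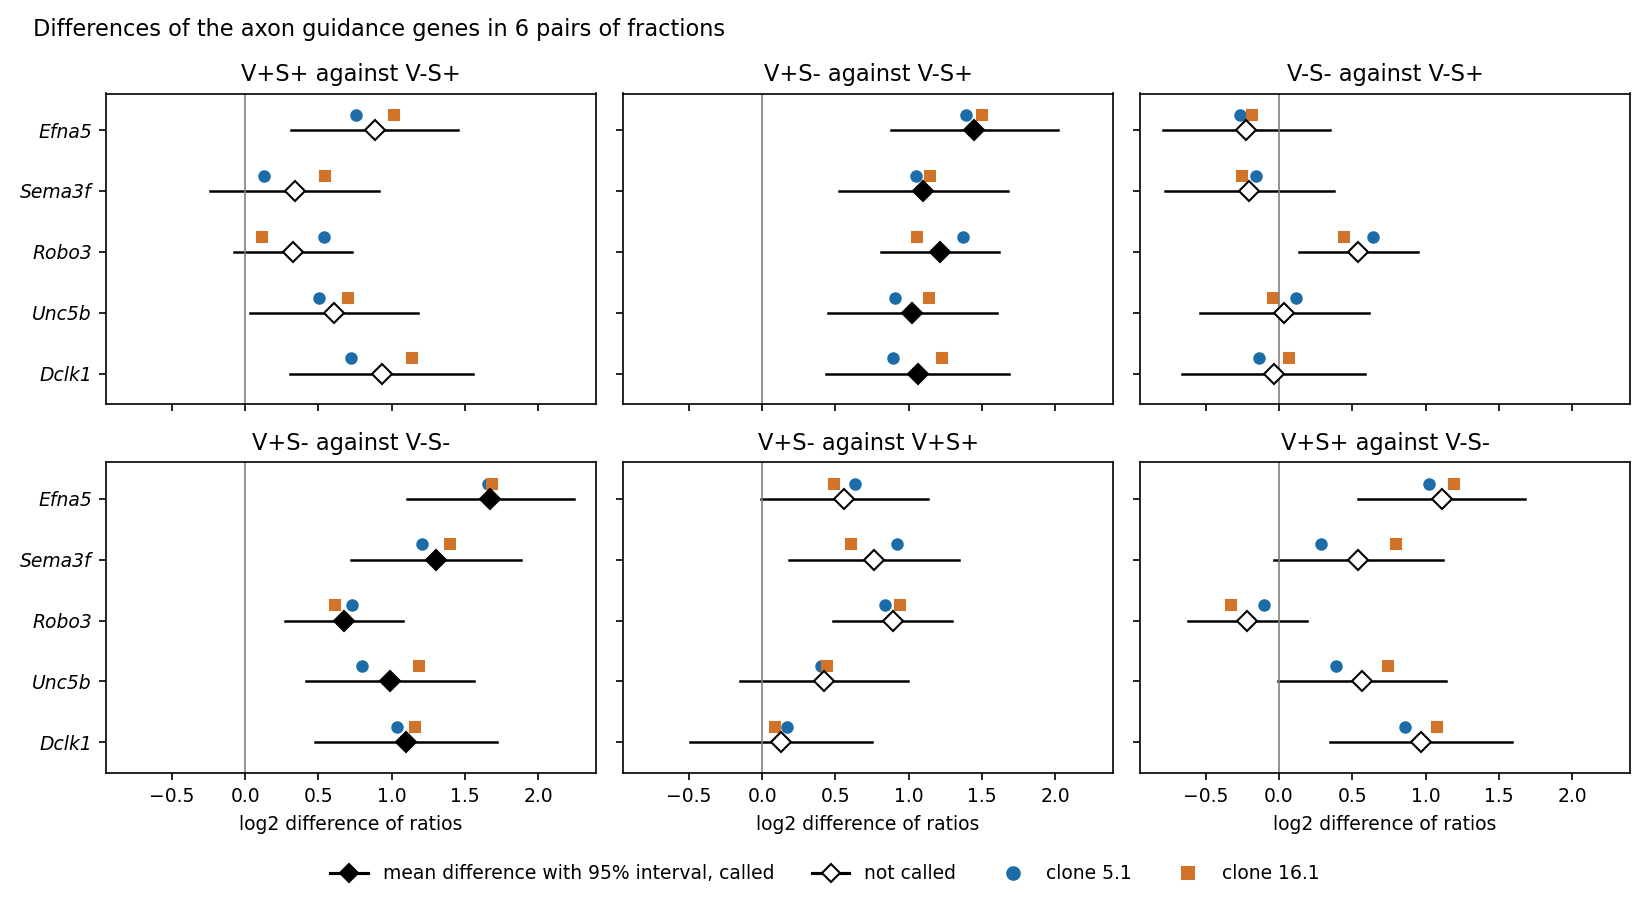
Log2 differences between 6 pairs of fractions for each gene, as the mean with its 95% interval from limma without the block (filled where called) and, above it, the difference within each clone. The filled points lie in V+S- against V-S+ and V+S- against V-S-, and Robo3 lies above 0 in V-S- against V-S+ and below 0 in V+S+ against V-S-.

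Whether the difference with Venus depended on SSEA-1 was tested as an interaction, the difference V+S- minus V-S- less the difference V+S+ minus V-S+. The estimates ran from 0.17 ± 0.36 for Dclk1 to 0.97 ± 0.34 for Sema3f. That of Dclk1 turned direction as samples were left out (-0.13 to 0.46), in fits with no clone term, and was 0.31 within clone 5.1 and 0.02 within clone 16.1. Over the same fits Unc5b ranged from 0.11 to 0.66, Robo3 from 0.14 to 0.56, Efna5 from 0.52 to 1.06 and Sema3f from 0.63 to 1.30. No gene was called by limma without the block, where 0% of all probes were called and Sema3f and 2340 probes had an unadjusted p under 0.05. With the block, Efna5 was called at 0.79 (limma adjusted p = 0.0357), against 0.828% of all probes called higher, and Sema3f was not (adjusted p = 0.0551). By the moderated F-test for any difference among the 4 fractions, Efna5 (limma adjusted p = 0.0349) and Robo3 (adjusted p = 0.0385) passed, as did 7.38% of all probes, and Sema3f, Dclk1 and Unc5b had adjusted p values of 0.0581, 0.0637 and 0.0786. With the block 5 of 5 genes and 43.5% of all probes passed this test. The study chose its list by a test among these same fractions and arrays, so passing is not independent evidence of a difference. Without the block, 0 of the 5 genes passed with the scanner software's signals or with the authors' log10 values.

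The clones set Robo3 apart from the other 4 genes. Clone 16.1 gave higher Efna5, Sema3f, Unc5b and Dclk1 ratios than clone 5.1 in all 4 fractions, with mean differences of 0.40 ± 0.05, 0.37 ± 0.08, 0.38 ± 0.07 and 0.42 ± 0.07 on the log2 scale (limma adjusted p = 0.00402, 0.0215, 0.0119 and 0.00879). Robo3 ran the other way, with a mean difference of -0.23 ± 0.07 (limma adjusted p = 0.0515). In V-S+ the 2 clones were alike in Robo3, at a difference of 0.00, and the gap reached -0.42 in V+S+. No mean difference between the clones exceeded 1.5-fold for these genes, and 2.14% of all probes were called between the clones in either direction. An unadjusted p under 0.05 between the clones was reached by all 5 genes and by 11688 of the 29484 probes. The gap was widest in V+S+ for Efna5, Sema3f, Robo3 and Dclk1, the fraction in which the gap also spread most over all probes (SD 0.30, against between 0.19 and 0.27 in the other fractions). Unc5b had its widest gap, 0.54, in V+S-, next to 0.51 in V+S+.

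**Figure D3:**
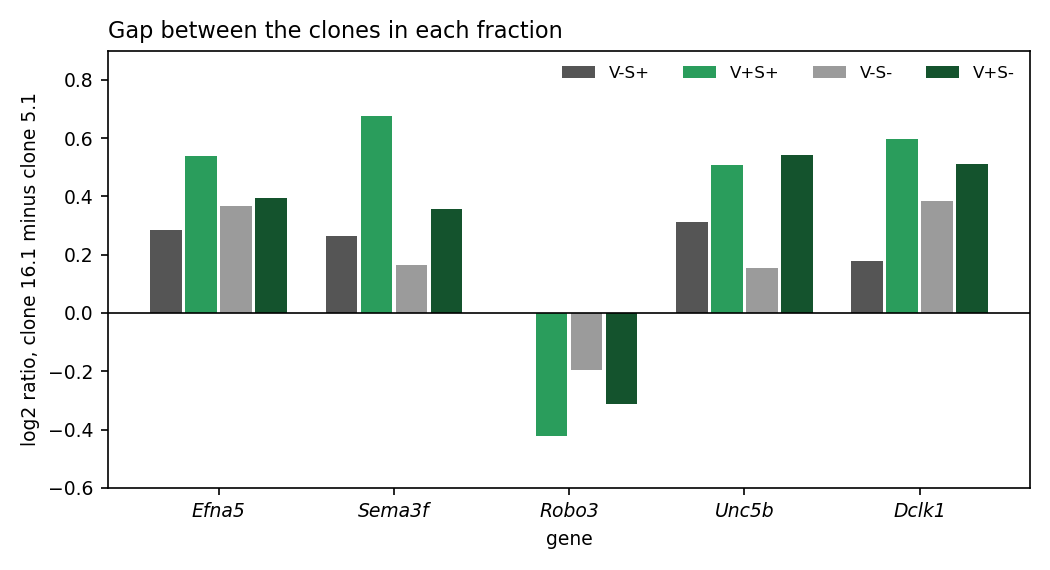
Difference in log2 ratio between clone 16.1 and clone 5.1 for each gene in each sorted fraction, as 1 bar per fraction with no replicate within a clone. The bars of Efna5, Sema3f, Unc5b and Dclk1 lie between 0.15 and 0.68 above 0, and those of Robo3 lie at or below 0.

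Over the 8 samples the log2 ratios of Efna5, Sema3f, Unc5b and Dclk1 ran together. Pearson correlations among these 4 genes were between 0.886 and 0.971. Robo3 correlated less with each of them, between 0.417 with Dclk1 and 0.585 with Sema3f. These are descriptions over 8 samples that share arrays, clones and the ordering of fractions. Among the other 1997 probes that the study's list names, 50.8% correlated with Efna5 at above 0.9, 47.3% with Unc5b, 43.8% with Sema3f and 40.8% with Dclk1, against 0.851% with Robo3. The 3 named genes most like Efna5 were Erbin, Kif5c and Cflar (r from 0.997 to 0.998), those most like Sema3f were Lox, Ccdc80 and Mvb12b (r from 0.996 to 0.997), and those most like Unc5b were Phc2, L3mbtl3 and Bin1 (r from 0.996 to 0.997). Cxadr, Bag2 and Pex2 were most like Dclk1 (r from 0.997 to 0.999), and Inafm2, Mvp and Rtkn most like Robo3 (r from 0.948 to 0.972).

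The promoters of Efna5, Robo3, Unc5b and Dclk1, as given by RefSeq, were searched for GATA-type motifs, since GATA factors such as Gata6 act in PrEn and the genes rose in the same fraction. The 250 bases before each transcription start were searched for AGATAA and for AGATAG, and likewise for TGATAA and for TGATAG, on both strands. A match was found in 2 of 5 promoters of these genes, as in 26.5% of 32851 promoters in the mouse table (GRCm38.p6). A match is a run of letters and does not show that a factor binds there. The 2 promoters with a match are printed on the strand of the gene with the match in capitals, TGATAA at 157 bases before the start of Unc5b (chr10:60831582-60831831, minus strand) and CTATCA, which is TGATAG on the other strand, at 115 bases before a second start of Dclk1 (chr3:55461478-55461727, plus strand).
Unc5b: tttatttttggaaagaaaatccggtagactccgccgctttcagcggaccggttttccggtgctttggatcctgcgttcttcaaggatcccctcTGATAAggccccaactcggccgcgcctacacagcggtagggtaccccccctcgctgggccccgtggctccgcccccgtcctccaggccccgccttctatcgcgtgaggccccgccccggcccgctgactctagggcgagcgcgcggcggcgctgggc
Dclk1: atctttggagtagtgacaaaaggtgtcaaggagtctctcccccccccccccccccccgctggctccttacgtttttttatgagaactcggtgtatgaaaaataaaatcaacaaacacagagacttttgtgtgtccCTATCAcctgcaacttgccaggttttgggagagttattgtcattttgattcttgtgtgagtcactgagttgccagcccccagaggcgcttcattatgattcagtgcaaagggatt
The Sema3f promoter was not analysed here. No match was found before the starts of Efna5 and Robo3 or before the first start of Dclk1.

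The 5 genes were set beside a list of 131 axon guidance genes, of which 27, or 20.6%, had a probe named in the study's list. All 27 were tested, and 22 of them are other than the 5 genes above. Because the names come from genes that the study selected on these arrays, the 27 are not a fair sample of the pathway. In V+S- against V-S+, 20 of 27 were called higher and 1 lower, where 5.73% of all probes were called higher and 1.28% lower. The median log2 difference was 1.04 over the 27, 0.01 over all probes and 0.67 over the 1998 named probes, of which 962 were called higher and 231 lower. With the block 23 of the 27 were called higher and 1 lower, and of the 1998 named probes 1096 higher and 317 lower. Without it, the 21 calls in either direction became 15 with median centring and 14 with the scanner software's signals. They fell further with the authors' log10 values and with an unmoderated test. In V+S- against V-S-, 20 were again called higher and 1 lower, at a median of 1.08, where 6.3% of all probes were called higher and 1.49% lower, and of the 1998 named probes 1060 higher and 263 lower. None of the 27 was called in V+S+ against V-S+ without the block, at a median of 0.40 and with 15 at an unadjusted p under 0.05, and 12 were called higher and 1 lower with it, where 3.87% of all probes were called higher and 1.75% lower, and of the 1998 named probes 510 higher and 175 lower.

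Among ligands, Efna5 and Efnb3 were the named ephrins of 8 listed, and they differed in direction. Efnb3, an ephrin with a transmembrane domain, had a log2 difference of -0.38 in V+S- against V-S+ and was not called. In V+S+ against V-S+ it differed by -0.60 and was called lower with the block. None of the 14 listed Eph receptors had a named probe. The 6 named semaphorins of 20 listed divided as well, with Sema3f, Sema3b and Sema4c called higher in V+S- against V-S+, as were 962 of the 1998 named probes. Sema4c, a transmembrane semaphorin, rose by 1.48, and V+S+ exceeded V-S+ by 0.72. The secreted Sema3b rose by 0.72, and V+S+ exceeded V-S+ by 0.36. Sema3e, at 1.19, Sema3c, at 0.88, and Sema4b, at -0.50, were not called against V-S+ without the block. With it Sema3e and Sema3c were called higher (limma adjusted p = 0.000422 and 0.00358) and Sema4b was not called. Against V-S- and without the block, Sema3e rose by 1.28 and Sema4b fell by 0.69. In V+S+ against V-S+ Sema3e was at 1.14 and Sema3c at 0.83, called with the block, and Sema4b was at -0.40 and not called.

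Of the receptors, the neuropilin Nrp2, which binds Sema3f, rose by 0.72 in V+S- against V-S+, with a V+S+ value 0.08 above V-S+. Nrp1 was at 0.56 in the first of these comparisons and was not called. Robo2 was at 0.91 with a limma adjusted p of 0.0531 against V-S+, where only the block called it (adjusted p = 0.00462), and was called at 1.08 against V-S-. Rgmb, a repulsive guidance molecule that also acts as a BMP co-receptor, rose by 0.73 beside Unc5b, and V+S+ exceeded V-S+ by 0.71. The cell adhesion molecules Alcam and Mdga1 rose by 1.38 and 0.60 in V+S- against V-S+, and their differences in V+S+ against V-S+ were 0.29 and 0.12.

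Inside the cell, 9 of the 10 named effectors of guidance receptors rose in V+S- against V-S+ and 1 fell, beside the 962 higher and 231 lower calls among the 1998 named probes through which the effectors were named. Farp1, a guanine nucleotide exchange factor that binds class A plexins, rose by 1.69, and V+S+ exceeded V-S+ by 0.90. The kinase Fes rose by 1.57, the kinase Ulk2 by 1.38 and Srgap3, a GTPase-activating protein of the Slit-Robo pathway, by 1.44. Their differences in V+S+ against V-S+ were 0.63, 0.69 and 0.24. The exchange factors Trio and Tiam2 rose by 1.14 and 1.04, the actin-binding Dbn1 by 1.06, the adaptor Nck2 by 0.91 and the GTPase Rhod by 0.81. In V+S+ against V-S+ these 5 differed by 0.74 for Trio, 0.14 for Tiam2, 0.74 for Dbn1, 0.40 for Nck2 and 0.42 for Rhod. Rnd1, a GTPase that binds plexins and opposes RhoA, fell by 0.62 in V+S- against V-S+ and differed by -0.49 in V+S+ against V-S+.

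**Figure D4:**
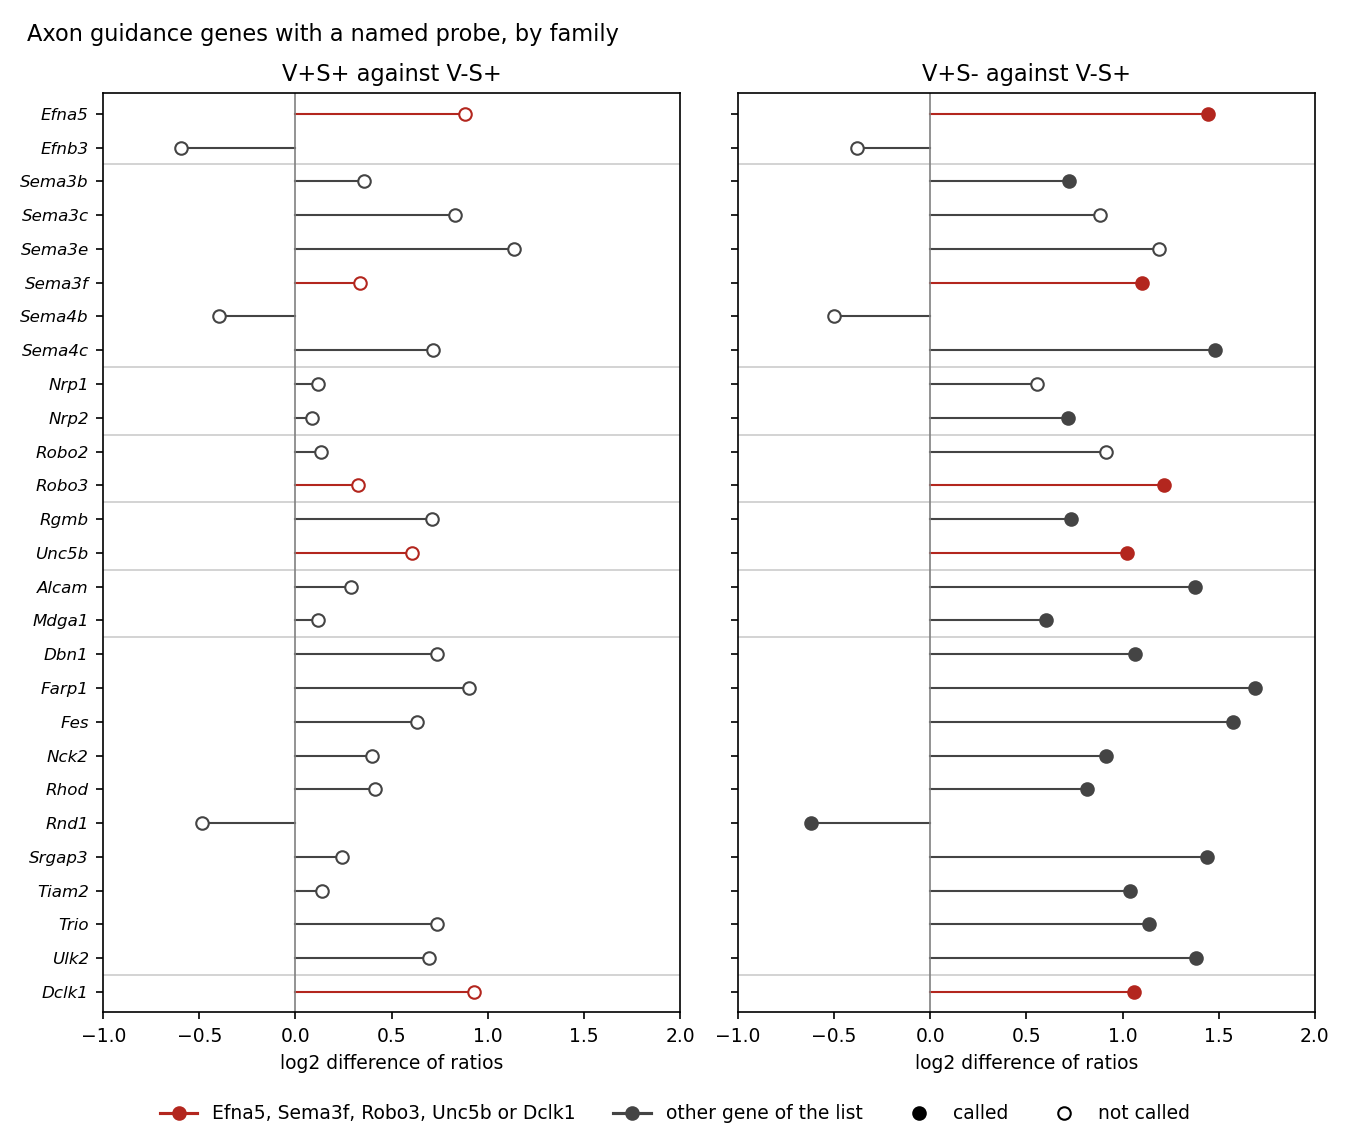
Log2 differences for the 27 axon guidance genes with a named probe, in V+S+ against V-S+ (left) and V+S- against V-S+ (right), ordered by family, with filled points where limma without the block called the gene. All points on the left are open, and on the right 20 filled points lie above 0 and 1, Rnd1, lies below.

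Markers of other cell types moved along with these genes. All 8 named PrEn markers, Col4a1, Col4a2, Dab2, Gata6, Lamb1, Lrp2, Sox7 and Sparc, were called higher in V+S- against V-S+. All 4 named ES cell markers were called lower. The named fibroblast markers, 3 of 10 listed, were Col1a2, Postn and S100a4, and all were called higher, from a mean log2 ratio of -5.77 and -5.49 in the V-S+ samples to -4.23 and -3.67 in those of V+S-. Of 16 listed neural markers 2 were named, and the adhesion molecule Ncam1 rose by 0.89 while the neuronal tubulin Tubb3 fell by 0.71. The mean log2 ratio of the PrEn markers in V+S+ was higher in clone 16.1 (-0.36) than in clone 5.1 (-0.78), the same order of clones as in Efna5, Sema3f, Unc5b and Dclk1. These markers too were named through the study's list, in which 962 of the 1998 probes were called higher and 231 lower. The part of any of these cell types in the differences of the 5 genes was not tested.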

How the data were processed

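RNA from the 8 sorted samples was hybridised, with Cy3, against a Cy5-labelled universal mouse reference on Agilent 44K arrays of 60-base probes, always in the same dye orientation. The deposited scanner files numbered 16 (Agilent Feature Extraction, 2 repeat scans per array) and hold the intensity of each spot in both channels and its flags. The authors also deposited a table of log10 values for 25164 probes. These matched the log10 ratio of processed Cy3 to Cy5 set to each probe's mean log10 processed Cy3, within 0.000146, so its scale, centring and direction are known. The array design number in the headers is not the one that the paper's methods state.

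Spot and background intensity were corrected by normexp (offset 50), the control spots dropped, and log ratios normalised scan by scan with loess in limma 3.58.1 (R 4.3.3). Repeat scans were averaged into 1 replicate. Probes well above background in Cy3 in all files of at least 1 fraction were kept, and 29484 were tested. Precision is limited by having 2 arrays per fraction. Pairs of fractions were compared with lmFit and eBayes over all 8 samples with fraction as the only term. They were called, at the study's thresholds, where the Benjamini-Hochberg FDR was below 0.05 and the change over 1.5-fold. Nothing states that a clone's fractions came from more than 1 culture, so p-values measure the spread between the 2 clones. The replicate number is the clone, so the numbers pair the samples: deviations from the fraction means correlated over probes at r between 0.588 and 0.811, and a fit with the clone as a block was run beside the first.

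Probes were named from the paper's list of differentially expressed genes, of which 1998 rows were used, with 271 symbols updated. Its columns of the authors' own comparisons were not used. The 5 genes are described in every sample, other listed genes by family, and for each gene the 3 named genes most correlated with it. The genes and lists were chosen with earlier results of these data known. The alternatives were other background corrections, median centring, Cy3 alone, other filters, single scans, the authors' log10 values, the block, ordinary in place of moderated statistics, and leaving out 1 sample at a time. Promoter sequences are from RefSeq.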

Additional observations from a re-analysis of the deposited data

Results flagged for a closer look

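Unc5b and Dclk1 moved in opposite directions in the 2 clones between V-S- and V-S+. The Unc5b log2 ratio was 0.115 higher in V-S- in clone 5.1, with a difference of -0.0417 in clone 16.1. The Dclk1 difference was -0.139 in clone 5.1 and 0.0647 in clone 16.1. These differences between the clones were not tested, since each clone has 1 sample per fraction, and the repeat scans of these samples differed by up to 0.127 for Dclk1 and 0.0250 for Unc5b.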

How the results depend on the processing

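The clone as a replicate block, which pairs the fractions of a clone, raised the number of the 5 genes called from 0 to 3 in V+S+ against V-S+, to 2 in V+S- against V+S+, to 2 in V+S+ against V-S- and to 1 in the interaction, and from 2 to 5 in the F-test; for the 27 listed genes it raised the calls in the first 3 comparisons from 0 to 13, 11 and 13. It changed no other call of the 5 genes. In V+S- against V-S+ the count of 5 became 3 with median centring, 4 with the scanner software's signals and 4 with Cy3 alone (Unc5b lost in both, limma adjusted p = 0.0567 and 0.0508), 0 with the authors' log10 values and 0 with an unmoderated test. In V+S- against V-S- it became 3 with the scanner software's signals, 4 with Cy3 alone (Robo3 lost), 1 with the authors' log10 values and 0 unmoderated. The F-test count of 2 became 0 with the scanner software's signals, the authors' values and the unmoderated test. Between the clones 1 gene, Dclk1, was called with the scanner software's signals, at 0.61. The count of 21 listed genes, in either direction, became 7 with the authors' values and 3 unmoderated in V+S- against V-S+, and 8 and 3 in V+S- against V-S-. The causes were not tested.

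With each sample left out in turn, the calls among the 5 genes ranged from 0 to 5 in both of these comparisons and in the F-test, and from 0 to 1 in V+S+ against V-S-; those among the listed genes ranged from 0 to 23 in both and from 0 to 11 in V+S+ against V-S-. The differences of V+S- from V-S+ remained above 0 throughout, between 0.75 and 1.64. Those that turned direction were never called: Unc5b in V-S- against V-S+ (-0.12 to 0.19, and -0.16 with median centring), Dclk1 in the same comparison (-0.23 to 0.15, and 0.0079 with the first scan alone), in V+S- against V+S+ (-0.17 to 0.43) and in the interaction (-0.13 to 0.46), and Sema3f in V+S+ against V-S+ (-0.00057 to 0.68). The fits with a sample left out held no clone term, so they set a single clone against the mean of both. Within clones 5.1 and 16.1 the Dclk1 difference was 0.17 and 0.09 in V+S- against V+S+, and 0.31 and 0.02 in the interaction. That of Sema3f was 0.13 and 0.54 in V+S+ against V-S+. Robo3 in the last comparison ranged from 0.11 to 0.54. With median centring the median of all probes was -0.12 in V-S- against V-S+, 0.13 in V+S- against V-S- and 0.20 in the interaction, against 0.00, 0.01 and 0.01. In V+S- against V-S- centring called 3744 probes higher and 139 lower, against 1858 and 440. In V+S- against V-S+, 1688 probes were called higher and 377 lower, against 1459 and 666 with the scanner software's signals and 1342 and 683 with Cy3 alone. The Dclk1 difference from V-S+ to V+S- was 1.66 in the authors' values and the scanner software's signals against 1.06, and its Cy3 signal was the closest of the 5 to background.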
